A study of Mus musculus with 17 samples.

Results

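The genes described here are 41 interferon-stimulated and antiviral genes, chosen as a named list of genes known to be induced by interferon or to act in antiviral defence. Of the 41, 38 had a probe set that the platform annotation assigns to a single gene, among 18195 such genes on the array. Isg15, which encodes a ubiquitin-like modifier, had only a probe set shared with another gene, and Ifi44 and Ly6a were not named by the annotation, so these 3 were left out.

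Interferons are secreted proteins that cells release when they detect viral or other foreign nucleic acid. Binding of type I interferon to its receptor activates the kinases Jak1 and Tyk2, which phosphorylate transcription factors that include Stat2. Stat2 works with Irf9 in a complex that binds a DNA element with repeated GAAA motifs, the interferon-stimulated response element, and turns on a large set of genes. Those genes include nucleic acid sensors, transcription factors that feed back on the pathway, antiviral effectors, negative regulators and proteins that prepare peptides for display on MHC class I molecules. Interferon-gamma, a product of T helper type 1 cells, acts in part through Irf1 and induces an overlapping set. In CD4 T cells interferons alter proliferation, survival and the choice of helper fate.

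The arrays came from a study of how retinoic acid (RA), a vitamin A metabolite, and dendritic cells (DCs), the antigen-presenting cells of spleen and gut, act on CD4 T cells that acquire Foxp3, which specifies regulatory T cells. RNA from 17 samples of sorted mouse CD4 T cells was amplified in 2 rounds and hybridised to Affymetrix mouse arrays. Each array was made from 3 pooled male mice aged 6 to 10 weeks. In the co-culture experiment, Foxp3-negative CD4 T cells were taken from the spleens of C57BL/6 mice carrying a Foxp3/GFP reporter and cultured for 5 days with spleen DCs (Sp-DC) or lamina propria DCs of the intestine (LP-DC). All co-cultures held anti-CD3 at 1 µg/ml, TGF-beta at 0.6 ng/ml and IL-2 at 5 ng/ml. Another kind of culture held spleen DCs with RA at 100 nM. The cells were then sorted into GFP-positive cells (Foxp3+) and GFP-negative cells (Foxp3-), giving 2 arrays for each of 5 groups and 1 array for the Foxp3- cells of the RA culture. In the memory experiment, CD44hi CD62L- CD25- CD4 T cells from the spleen and lymph nodes of C57BL/6 mice were cultured for 48 h beside naive CD4 T cells with anti-CD3/CD28 beads, IL-2 at 20 U/ml and TGF-beta at 10 ng/ml, without RA (Memory) or with RA at 100 nM (Memory plus RA), and were sorted again by a congenic marker. Each memory group had 3 arrays.

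Levels are log2 of the deposited intensity of 1 probe set per gene, and array medians lay between 5.88 and 5.98 on this scale. A difference of 1 is a doubling of intensity. All 7 T cell markers measured were expressed on every array. The Foxp3 probe set lay between 3.88 and 4.53 on the co-culture arrays, below the median of each, and between 7.08 and 9.14 on the memory arrays, so it gave no check of the GFP sort. For 5 of the 6 GFP-positive arrays the source name said Foxp3-, against the title and the sort label, which were used here. The summed intensity of 5 measured CD8 T cell and NK cell genes was 717 to 1699 in the Foxp3+ groups and 3230 to 4658 in the Foxp3- groups. Klrd1 and Gzma, a receptor chain and a granzyme of cytotoxic cells, carried this difference. Klrd1 was at 7.42 to 9.82 on the Foxp3+ arrays and at 9.91 to 11.53 on the Foxp3- arrays, and Gzma at 5.80 to 9.72 and 9.69 to 11.22. The defining markers overlapped between the sorts, with Cd8a at 7.34 to 7.80 on all 11 arrays and Cd8b1 and Ncr1 below the median of each. Both memory arrays numbered 3 stood apart from numbers 1 and 2, and both LP-DC arrays numbered 2 stood apart in these genes, so the results they touch are also given without them. The arrays measured bulk RNA, in which fewer cells of a type and less RNA per cell cannot be told apart.

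Tests used limma, a linear model that shares information on the spread across all genes, with Benjamini-Hochberg adjustment over all genes tested and a threshold of 0.05. The unpaired fit ignored the number that the labels give each array. The paired fit used that number as a block, because arrays of the same number deviated from their group means together. A gene entered the tests when 2 or more arrays of the fit had it above their median. Of the 38 genes, 35 were tested in the co-culture experiment and 34 in the memory experiment. Mx1 and Oasl2, both antiviral effectors, were below this limit in each experiment. Ifit1 and the sensor Dhx58 were left out in the memory cells, and Eif2ak2, the kinase PKR that halts translation on double-stranded RNA, in the co-cultures. The samples were pools, so the p-values measure the spread between these arrays. In the unpaired fit no gene of the set passed in any of the 9 comparisons or the 2 interaction terms.

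**Figure D1:**
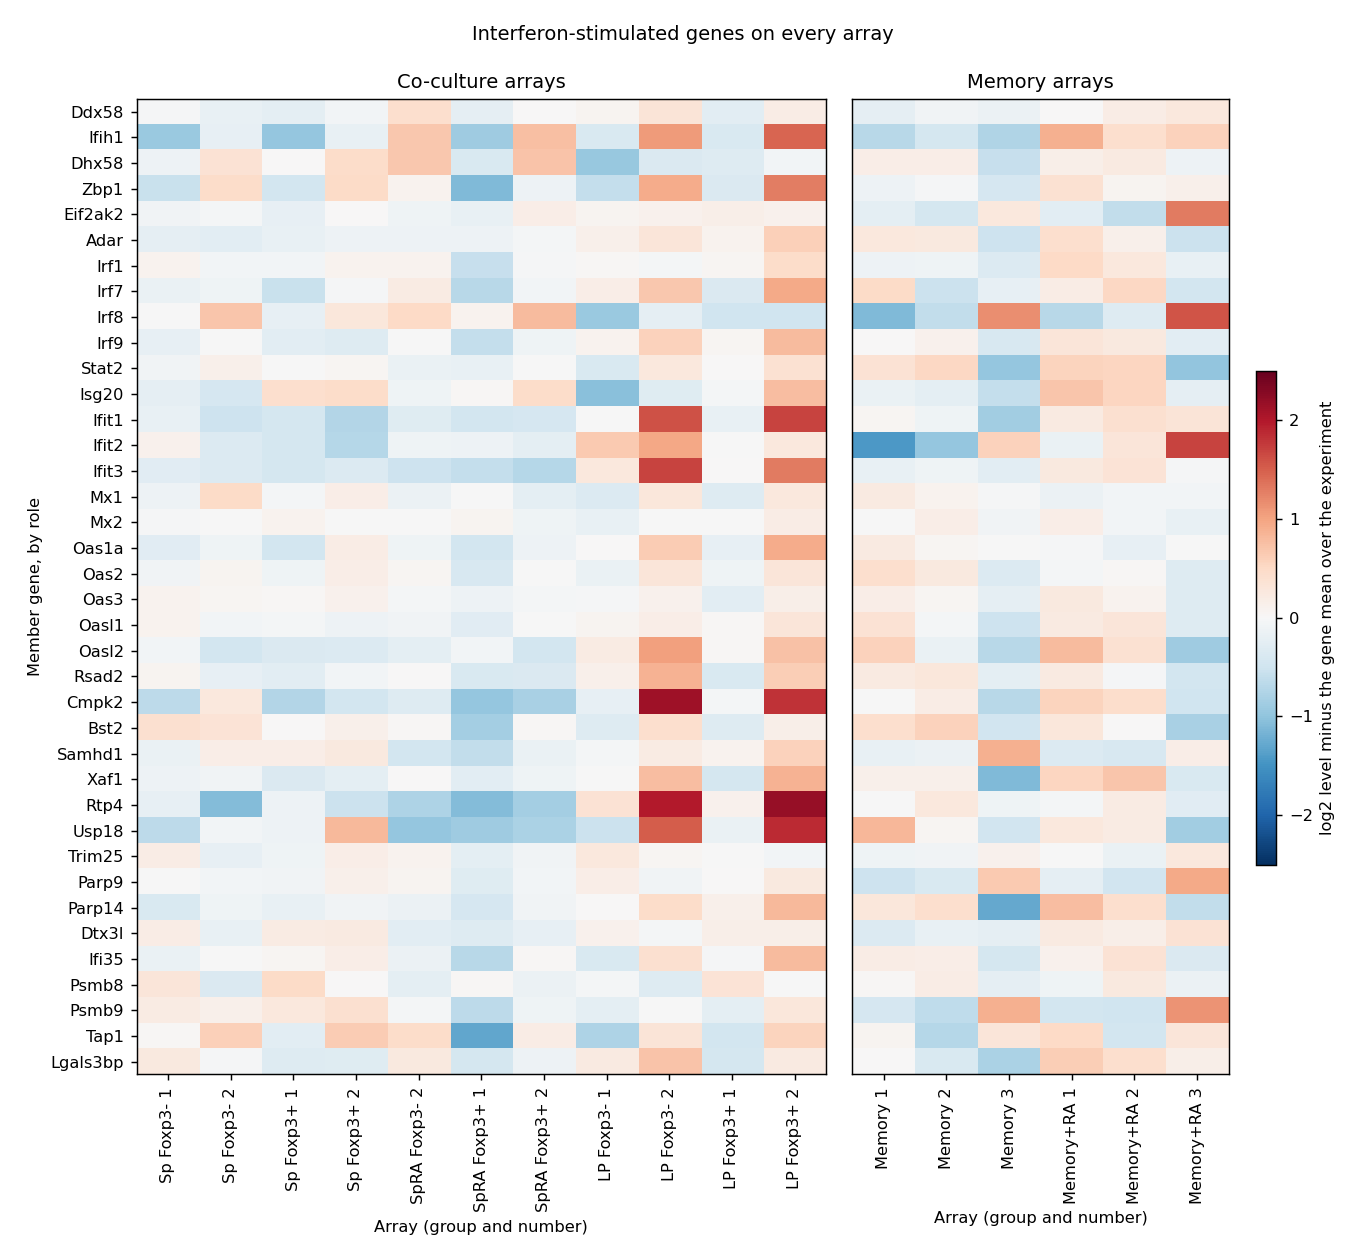
Heat map of the 38 measured genes (rows, grouped by role) on the 17 arrays (columns, by group and array number). Colour is the log2 level minus that gene's mean over the arrays of the same experiment. The columns of both LP-DC arrays numbered 2 are high for many genes, among them Rtp4, Usp18, Cmpk2 and the Ifit genes, and the memory arrays numbered 3 differ from numbers 1 and 2 in both directions.

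The largest differences in the co-culture experiment lay on the arrays of T cells cultured with lamina propria DCs, and within these on the arrays numbered 2. The genes concerned were Rtp4, Ifit1, Cmpk2, Ifit3, Usp18 and Ifih1. Rtp4, a receptor transporter protein induced by interferon, was at 8.37 and 10.44 on the LP-DC Foxp3+ arrays numbered 1 and 2, and at 8.14 and 7.73 on the Sp-DC Foxp3+ arrays. In the Foxp3- cells it was at 8.62 and 10.25 with LP-DC and at 8.06 and 7.18 with Sp-DC. All 4 LP-DC arrays were above all 4 Sp-DC arrays for this gene, and the arrays numbered 2 exceeded those numbered 1 by 2.07 and 1.64. Ifit1, which binds viral RNA lacking the host cap methylation, was at 5.28 and 7.16 in Foxp3+ cells and at 5.47 and 7.06 in Foxp3- cells with LP-DC. With Sp-DC it was at 5.03 and 4.75 in Foxp3+ cells and at 5.28 and 4.95 in Foxp3- cells, below the array median. Only the LP-DC arrays numbered 2 were above the array median for Ifit1, and their excess over the Sp-DC arrays of the same number was 2.41 in Foxp3+ and 2.11 in Foxp3- cells.

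Cmpk2, a mitochondrial nucleotide kinase encoded beside Rsad2, was at 7.04 and 8.90 in LP-DC Foxp3+ cells and at 6.36 and 6.62 in Sp-DC Foxp3+ cells. In Foxp3- cells it was at 6.88 and 9.20 with LP-DC and at 6.44 and 7.35 with Sp-DC. The levels did not overlap in Foxp3+ cells, whereas in Foxp3- cells the LP-DC array numbered 1 was below the Sp-DC array numbered 2. Ifit3, a partner of Ifit1, was at 6.26 and 7.55 in LP-DC Foxp3+ cells against 5.82 and 5.91 with Sp-DC, and at 6.51 and 7.94 in LP-DC Foxp3- cells against 5.97 and 5.92. Here too the LP-DC arrays were above the Sp-DC arrays at both numbers. Usp18, a protease that removes Isg15 and also blocks the interferon receptor, was at 6.92 and 8.95 in LP-DC Foxp3+ cells and at 6.96 and 7.89 in Sp-DC Foxp3+ cells. It was at 6.55 and 8.60 in LP-DC Foxp3- cells and at 6.43 and 7.03 in Sp-DC Foxp3- cells, so at number 1 the difference was -0.04 and 0.12, and at number 2 it was 1.06 and 1.57. Ifih1 encodes MDA5, a sensor of long double-stranded RNA. It was at 8.36 and 10.21 in LP-DC Foxp3+ cells against 7.79 and 8.56 with Sp-DC, and at 8.37 and 9.82 in LP-DC Foxp3- cells against 7.81 and 8.54. Ifih1 was above the Sp-DC array of the same number in all 4 pairs, by 0.56 to 1.64.

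None of these genes but Ifih1 was higher on an RA array than on its highest Sp-DC array. In RA Foxp3+ cells numbered 1 and 2 Rtp4 was at 7.18 and 7.42, Cmpk2 at 6.13 and 6.27, Usp18 at 6.19 and 6.29, Ifit1 at 5.01 and 5.05, Ifit3 at 5.66 and 5.54 and Ifih1 at 7.85 and 9.5. On the single RA Foxp3- array they were at 7.50, 6.77, 6.12, 5.18, 5.74 and 9.43 in the same order. Only Ifih1 was thus high with RA, and only at number 2. Ifit2, a relative of Ifit1 and Ifit3, was at 7.88 and 8.15 with LP-DC, 7.47 and 7.19 with Sp-DC and 7.77 and 7.65 with RA in Foxp3+ cells. In Foxp3- cells Ifit2 was at 8.56 and 8.87 with LP-DC, 8.01 and 7.55 with Sp-DC and 7.79 with RA. Both LP-DC Foxp3- arrays were above all others for Ifit2. Xaf1, a pro-apoptotic antagonist of the caspase inhibitor XIAP, was at 7.21 and 8.51 with LP-DC, 7.28 and 7.40 with Sp-DC and 7.38 and 7.55 with RA in Foxp3+ cells. In Foxp3- cells Xaf1 was at 7.63 and 8.41, 7.53 and 7.56, and 7.65. The LP-DC arrays numbered 2 were the highest for Xaf1.

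**Figure D2:**
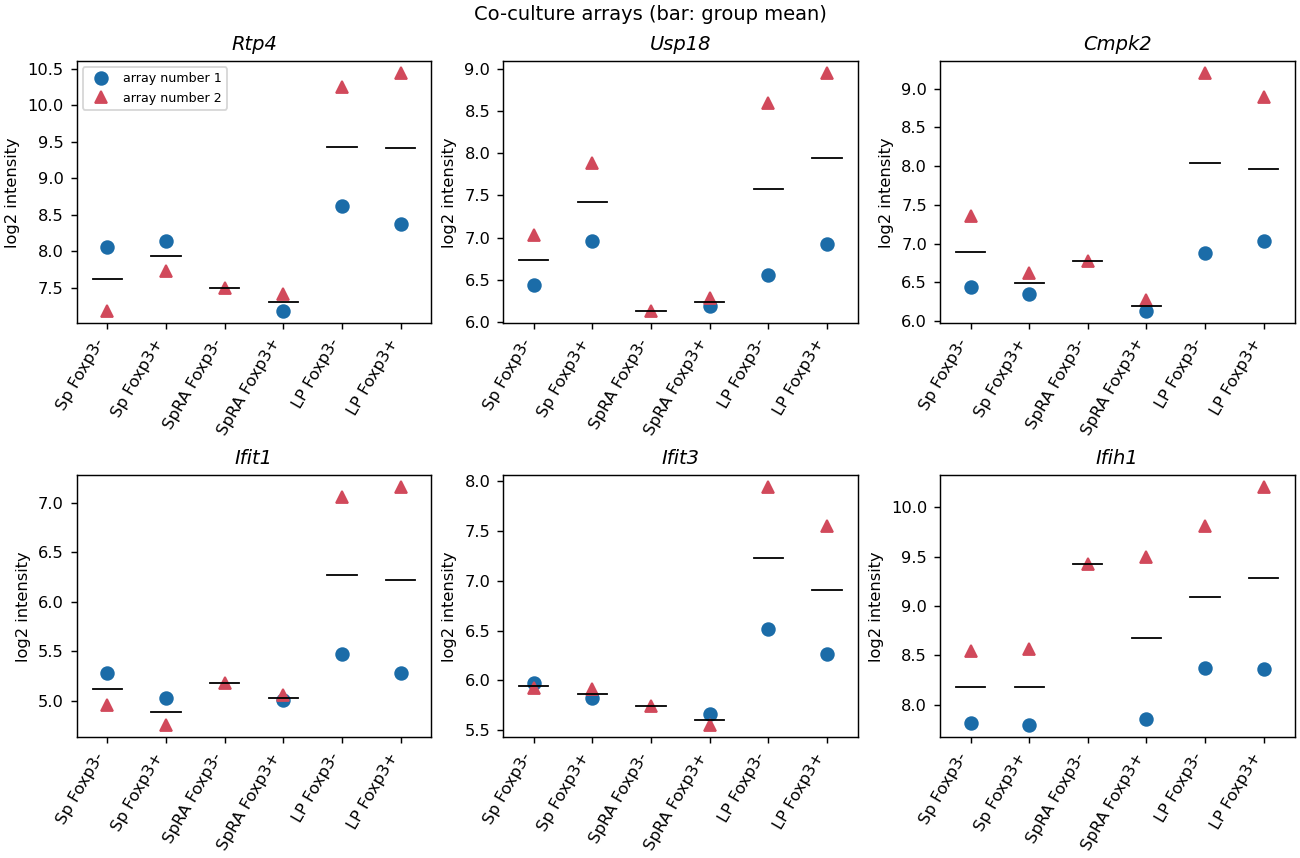
Log2 intensity (vertical axes) of Rtp4, Usp18, Cmpk2, Ifit1, Ifit3 and Ifih1 on the 11 co-culture arrays, by culture and Foxp3 sort, with a point per array marked by its number and a bar at the group mean. For all of these genes the LP-DC arrays numbered 2 lie above every other array. Ifih1 is also high on the RA arrays numbered 2, at 9.43 in Foxp3- and 9.5 in Foxp3+ cells.

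Over the set, 0 of 35 genes passed for LP-DC against Sp-DC in the unpaired or the paired limma fit, in Foxp3+ or in Foxp3- cells. In the unpaired fit percent called over all genes was 0 in both, and in the paired fit it was 1.44% in Foxp3+ and 0.586% in Foxp3- cells. At an unadjusted p under 0.05 the unpaired fit had 4 and 5 genes of the set (8.03% and 6.66% of all genes). The paired fit had 14 and 14 (18.9% and 16.7% of all genes). The mean differences were positive for 25 of 35 genes in Foxp3+ cells, with a median of 0.25, and for 24 of 35 in Foxp3- cells, with a median of 0.17. In Foxp3+ cells 9 of 35 genes were higher without overlap of the 2 groups and 3 were lower (2407 and 2184 of all 11940 genes). In Foxp3- cells these counts were 12 and 3 (1741 and 2080). Ifit1 is counted in the 9 and the 12 and among the positive differences of both sorts. As it entered the tests only through the LP-DC arrays numbered 2, the filter favoured its place. In Foxp3+ cells Cmpk2 differed by 1.48 ± 0.46 (SE, paired limma adjusted p = 0.119), Rtp4 by 1.47 ± 0.60 (0.224), Ifit1 by 1.33 ± 0.50 (0.188) and Ifih1 by 1.11 ± 0.26 (0.0618). In Foxp3- cells Rtp4 differed by 1.82 ± 0.60 (paired limma adjusted p = 0.165) and Ifit2 by 0.94 ± 0.19 (0.0589). These differences were large beside the median of the set and did not pass the threshold. In Foxp3+ cells the paired fit called 1 gene without the LP-DC array numbered 1 and 2 without the Sp-DC array numbered 1. The difference between the Foxp3+ and Foxp3- cells in the LP-DC effect was itself small, between -0.35 and 0.40 over the 35 genes, and 0 of them reached an unadjusted p under 0.05 in either limma fit (0.905% of all genes unpaired and 3.68% paired).

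The array number split these differences. At number 1, 0 of 35 genes were higher with LP-DC by more than 1 log2 unit, in Foxp3+ or Foxp3- cells, against 0.276% and 0.184% of all genes tested. At number 2, 8 of 35 were in Foxp3+ cells and 8 in Foxp3- cells, against 2.29% and 1.19% of all genes. The 8 in Foxp3+ cells were Rtp4, Ifit1, Cmpk2, Ifit3, Ifih1, Xaf1, Irf9 and Usp18. The 8 in Foxp3- cells were Rtp4, Ifit1, Ifit3, Cmpk2, Usp18, Ifit2, Ifih1 and Rsad2, so 6 were shared. The medians over the 35 genes were -0.00 and 0.07 at number 1, and 0.43 and 0.42 at number 2. Both LP-DC arrays numbered 2 were above all 9 other co-culture arrays for 18 of the 35 genes, against 8.12% of all genes. The same count was 0 for the LP-DC arrays numbered 1 (1.88% of all genes) and 1 for the Sp-DC arrays numbered 2 (5.21%). For the RA arrays numbered 2 it was 1 (7.61%), and for the Sp-DC arrays numbered 1 it was 0 (2.67%). Ifit1 is among the 18 and in both lists of 8. It entered the tests only through the LP-DC arrays numbered 2, so its place was set by the filter. Without both LP-DC arrays numbered 2, the median of the remaining LP-DC minus Sp-DC differences was -0.07 in Foxp3+ cells, with 11 of 34 positive, and 0.03 in Foxp3- cells, with 18 of 34 positive.

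**Figure D3:**
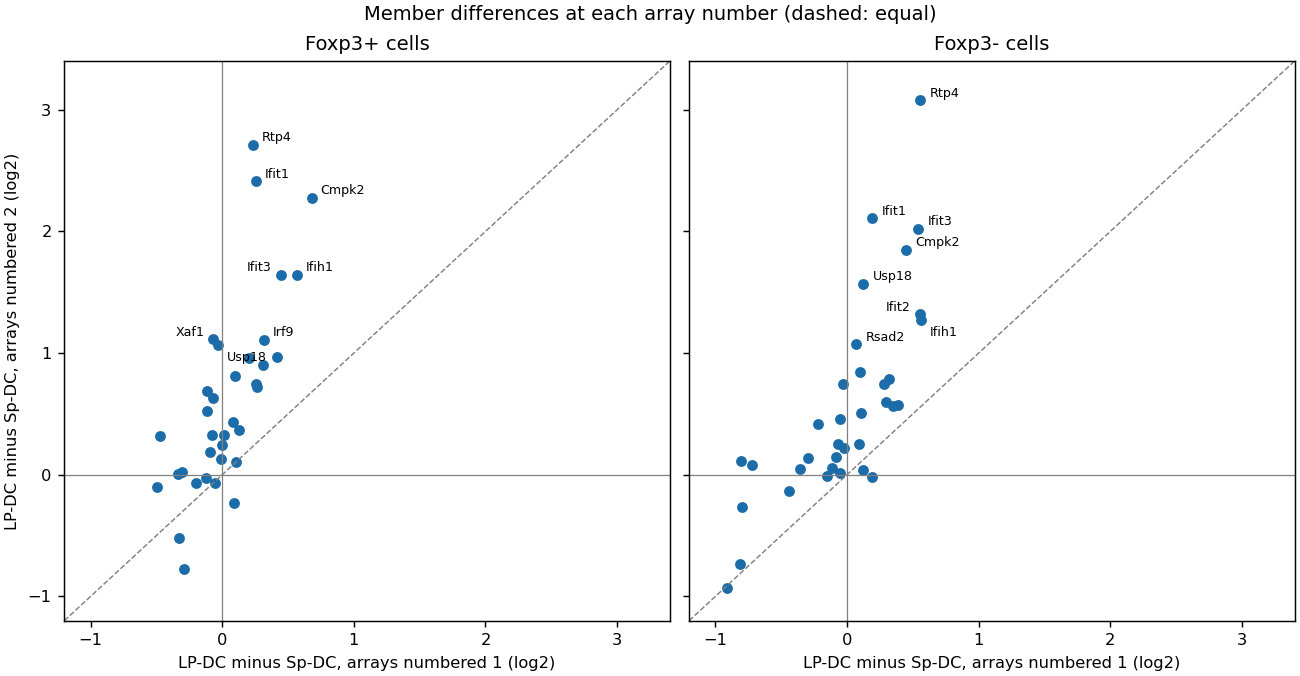
LP-DC minus Sp-DC differences (log2) of the 35 tested genes on the arrays numbered 2 (vertical axis) against those numbered 1 (horizontal axis), for Foxp3+ cells (left) and Foxp3- cells (right). All genes that differ by more than 1 do so at number 2, up to 2.71 for Rtp4 in Foxp3+ and 3.08 in Foxp3- cells, and no point lies above 1 at number 1.

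The genes did not all behave alike across array numbers. For Rtp4 the number 2 array minus the number 1 array was 2.07 and 1.64 in the LP-DC groups, -0.41 and -0.88 in the Sp-DC groups and 0.25 in the RA Foxp3+ group. For Zbp1, a sensor of Z-form nucleic acid that can trigger cell death, it was 1.65 and 1.52 with LP-DC, but also 0.94 and 1.01 with Sp-DC and 0.98 with RA. Tap1, which carries peptides into the endoplasmic reticulum, had 1.03 and 1.10 with LP-DC, 0.90 and 0.57 with Sp-DC and 1.48 with RA. Ifih1 had 1.85 and 1.44 with LP-DC, 0.77 and 0.73 with Sp-DC and 1.64 with RA. Zbp1, Tap1 and Ifih1 were thus higher at number 2 in every culture, and Rtp4 in the LP-DC and RA groups. Over the set, the number 2 array was higher by more than 1 for 11 of 35 genes in the LP-DC Foxp3+ group and for 8 of 35 in the LP-DC Foxp3- group, against 1.06% and 2.24% of all genes. It was so for 3 of 35 in the RA Foxp3+ group (4.19% of all genes), 1 of 35 in the Sp-DC Foxp3- group (1.92%) and 0 of 35 in the Sp-DC Foxp3+ group (1.84%). Ifit1, counted in both LP-DC groups, entered the tests only through their number 2 arrays. The labels give no date or batch that the number could stand for.

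Irf8 and Dhx58 ran the other way. Irf8, a transcription factor best known from myeloid cells, was at 7.30 and 7.30 in LP-DC Foxp3+ cells and at 7.59 and 8.08 in Sp-DC Foxp3+ cells. In Foxp3- cells it was at 6.88 and 7.57 with LP-DC and at 7.79 and 8.50 with Sp-DC. The difference in Foxp3- cells was -0.92 ± 0.18 (SE, paired limma adjusted p = 0.0577), and it was -0.92 and -0.93 at the 2 array numbers. Dhx58, the helicase LGP2 that modulates Ifih1, was at 5.64 and 6.22 in LP-DC Foxp3- cells against 6.46 and 6.95 with Sp-DC, a difference of -0.77 ± 0.18 (paired limma adjusted p = 0.0768). In Foxp3+ cells Dhx58 was at 6.27 and 6.52 with LP-DC, 6.59 and 7.04 with Sp-DC and 6.21 and 7.30 with RA, and it was at 7.25 on the RA Foxp3- array, where Irf8 was at 8.30. For both genes the Foxp3- arrays of the 2 cultures did not overlap, as for 2080 of all 11940 genes in that direction. Neither passed the threshold.

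The other genes are given by role, with the LP-DC minus Sp-DC difference in Foxp3+ and then in Foxp3- cells, and none of them passed. Among the sensors, Adar, which edits double-stranded RNA so that it escapes detection, differed by 0.49 and 0.46. It was at 8.62 to 9.13 on the 4 LP-DC arrays and at 8.29 to 8.41 on the 4 Sp-DC arrays, without overlap. Ddx58, which encodes RIG-I, the sensor of short RNA with a 5′ triphosphate, differed by 0.12 and 0.31.

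Among the transcription factors, Irf7, which amplifies type I interferon production, differed by 0.58 and 0.56, and Irf9 by 0.71 and 0.44. Irf9 was at 8.52 and 9.26 in LP-DC Foxp3+ cells against 8.20 and 8.15 with Sp-DC, and at 8.55 and 9.04 in LP-DC Foxp3- cells against 8.26 and 8.45. All 4 LP-DC arrays were thus above all 4 Sp-DC arrays for Irf9. Its partner Stat2 differed by 0.17 and -0.08, and Irf1 by 0.25 and -0.02.

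The effectors named next had no common direction. Oas1a, an enzyme that makes the messenger that activates RNase L, differed by 0.50 and 0.51, and Rsad2 by 0.29 and 0.57. The related Oas2 and Oas3 differed by 0.06 and 0.09 and by -0.14 and -0.03. Mx2, a dynamin-like GTPase, differed by 0.05 and -0.08, and Bst2, the tetherin that holds virus particles at the cell surface, by -0.17 and -0.32.

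Among the regulators, Parp14 differed by 0.61 and 0.48, Parp9 by 0.10 and 0.09 and Trim25, the ubiquitin ligase that activates RIG-I, by -0.07 and 0.17. The antigen-processing genes of the set had negative mean differences in both sorts. They were -0.08 and -0.15 for Psmb8, -0.30 and -0.29 for Psmb9 and -0.13 and -0.53 for Tap1. Psmb8 was higher with LP-DC in 1 of the 2 Foxp3- pairs, by 0.05.

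A sum of DC markers differed with the DC source, and so did H2-Ab1, which is part of that sum. The summed intensity of 14 measured DC and myeloid genes was 1633 to 2061 on the LP-DC arrays and 2239 to 3197 on the Sp-DC arrays with or without RA. H2-Ab1, an MHC class II gene, was at 8.85 to 9.52 on the LP-DC arrays and at 9.88 to 10.78 on the others. The median level of the 14 genes did not follow the source in this way, at 6.29 to 6.36 with LP-DC, 6.28 to 6.39 with Sp-DC and 6.40 to 6.52 with RA. Among these genes Itgax, Xcr1, Cd209a and Lyz2 lay below the array median on all 11 arrays. Flt3, Zbtb46, Csf1r, Cst3, Cd74, H2-Aa, H2-Ab1, H2-Eb1 and Fscn1 lay above it on all 11, and Ccl22 on 2. The sum of 5 genes of plasmacytoid DCs, a major source of type I interferon, was 400 to 485 over all co-culture arrays. On the memory arrays this sum was 505 to 964. Of the 5 genes, Klk1, at 7.58 to 7.80, and Siglech lay above the array median on all 11 co-culture arrays. Cox6a2 did so on 5, Tcf4 on 3 and Ly6d on 1. The part of DCs of any kind in the differences was not tested.

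The promoter windows of 4 genes that were high on the LP-DC arrays numbered 2 are shown because their capitals mark the motif GAAANNGAAA, on either strand, which is the core of the interferon-stimulated response element. Each window runs from 250 bases before to 50 bases after an annotated transcription start in RefSeq on GRCm38.p6 and is written along the gene's strand. The windows are those of Ifit1 at chr19:34640639-34640938 (+), Ifit3 at chr19:34583279-34583578 (+), Ifih1 at chr2:62646206-62646505 (-) and Rsad2 at chr12:26456403-26456702 (-).
Ifit1: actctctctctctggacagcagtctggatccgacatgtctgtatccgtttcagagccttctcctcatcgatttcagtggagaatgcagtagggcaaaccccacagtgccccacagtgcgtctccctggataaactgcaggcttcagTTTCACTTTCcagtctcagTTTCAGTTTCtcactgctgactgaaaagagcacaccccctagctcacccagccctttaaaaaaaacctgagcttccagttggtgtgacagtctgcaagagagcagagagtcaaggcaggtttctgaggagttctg
Ifit3: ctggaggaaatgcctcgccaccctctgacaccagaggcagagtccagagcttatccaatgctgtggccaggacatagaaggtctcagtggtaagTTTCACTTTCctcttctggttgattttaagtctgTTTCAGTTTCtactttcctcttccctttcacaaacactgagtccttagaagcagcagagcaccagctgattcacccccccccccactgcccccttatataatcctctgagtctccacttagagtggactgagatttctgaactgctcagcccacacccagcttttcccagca
Ifih1: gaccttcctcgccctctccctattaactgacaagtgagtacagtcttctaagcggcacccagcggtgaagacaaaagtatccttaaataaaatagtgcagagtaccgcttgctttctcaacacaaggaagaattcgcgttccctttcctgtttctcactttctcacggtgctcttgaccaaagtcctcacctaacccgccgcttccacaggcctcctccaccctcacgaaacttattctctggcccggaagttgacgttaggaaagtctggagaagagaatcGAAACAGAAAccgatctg
Rsad2: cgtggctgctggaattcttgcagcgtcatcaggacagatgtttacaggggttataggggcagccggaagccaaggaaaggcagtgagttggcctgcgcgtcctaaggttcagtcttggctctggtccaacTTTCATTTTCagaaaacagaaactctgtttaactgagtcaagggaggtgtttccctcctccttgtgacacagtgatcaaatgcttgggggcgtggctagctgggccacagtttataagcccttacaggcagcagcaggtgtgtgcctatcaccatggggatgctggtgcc
The matches begin 104 and 85 bases before the start in Ifit1, 156 and 122 bases before it in Ifit3 and 120 bases before it in Rsad2, which encodes viperin. In Ifih1 the match begins 32 bases after the start. The motif was present in a window of 10 of the 29 measured genes of the set that had one (34.5%) and in 1079 of the 27025 genes of the whole promoter table (3.99%). The other 6 genes with a match were Bst2, Ddx58, Eif2ak2, Oas1a, Oas3 and Stat2. The windows of Cmpk2, Ifit2, Isg20, Lgals3bp, Xaf1, Samhd1, Irf8 and Dtx3l held no match, and 9 genes, among them Rtp4, Usp18 and Zbp1, had no window. At number 2 the median LP-DC minus Sp-DC difference was 0.69 in Foxp3+ and 0.75 in Foxp3- cells for the 9 tested genes with a match. It was 0.40 and 0.24 for the 18 genes whose windows held none, and 0.50 and 0.36 for the 8 without a window. At number 1 the medians were 0.01 and 0.11 with a match, -0.06 and -0.03 with none, and 0.04 and 0.04 without a window. For RA in memory cells the order of genes with a match and with none was the other way. The medians at numbers 1 to 3 were 0.07, 0.02 and 0.01 for the 9 genes with a match. They were 0.35, 0.27 and 0.17 for the 18 with none, and 0.17, -0.05 and 0.02 for the 7 without a window. The 9 with a match include Eif2ak2 and not Ifit1 in memory cells, and Ifit1 and not Eif2ak2 in the co-cultures. Ifit1 entered the co-culture tests only through the LP-DC arrays numbered 2. A match is a description of these letters, and binding was not measured.

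The next comparison set LP-DC cultures against Sp-DC cultures with added RA, which asks how far RA makes spleen DC cultures resemble those with gut DCs. It shares the LP-DC arrays with the comparison above, and the RA arrays with the RA comparison in Foxp3+ cells. In Foxp3+ cells 33 of the 35 genes were higher with LP-DC, with a median difference of 0.41. The 2 groups did not overlap for 16 genes higher and 1 lower with LP-DC (1851 and 1513 of all 11940 genes). Ifit1, counted in the 33 and in the 16, entered the tests only through the LP-DC arrays numbered 2, so the filter favoured its place. In the paired limma fit Zbp1 and Samhd1 were higher and Irf8 was lower (3 of 35 genes, against 1.83% called over all genes, 1.09% higher and 0.745% lower). The unpaired limma fit called 0 of 35, against 0.0921% of all genes, with 8 at an unadjusted p under 0.05 (5.80% of all genes), and 20 when paired (14.0%).

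Zbp1 was at 6.21 and 7.86 with LP-DC and at 5.47 and 6.45 with RA, a difference of 1.08 ± 0.19 (SE, paired limma adjusted p = 0.0274, and 0.0121 to 0.301 over the alternative settings). The LP-DC array numbered 1 was below the RA array numbered 2, so the groups overlapped, and the differences at numbers 1 and 2 were 0.74 and 1.41. On the other arrays Zbp1 was at 6.11 and 7.06 in Sp-DC Foxp3+ cells, and in Foxp3- cells at 5.98 and 7.50 with LP-DC, 6.03 and 7.04 with Sp-DC and 6.66 with RA. Number 2 was thus the higher array in every group that had both. Samhd1, which degrades the nucleotides that reverse transcription needs, was at 12.37 and 12.86 with LP-DC and at 11.66 and 12.12 with RA. The groups did not overlap and differed by 0.72 ± 0.14 (paired limma adjusted p = 0.0349, range 0.0132 to 0.406), with 0.70 and 0.74 at the array numbers. Elsewhere Samhd1 was at 12.44 and 12.53 in Sp-DC Foxp3+ cells, and in Foxp3- cells at 12.23 and 12.48 with LP-DC, 12.11 and 12.44 with Sp-DC and 11.82 with RA. All 3 RA arrays lay below the LP-DC arrays for Samhd1. Irf8 was at 7.30 and 7.30 with LP-DC and at 7.89 and 8.60 with RA. It was lower with LP-DC by -0.94 ± 0.18 (paired limma adjusted p = 0.0366, range 0.0125 to 0.354), without overlap. Usp18 and Rtp4 had larger differences of 1.70 ± 0.42 and 2.11 ± 0.60 and did not pass (paired limma adjusted p = 0.0841 and 0.132). Without both LP-DC arrays numbered 2, without the Foxp3+ one alone, or without either RA Foxp3+ array, the paired fit called 0 genes of the set, and without the LP-DC Foxp3+ array numbered 1 it called 6. Without both LP-DC arrays numbered 2 the median difference was 0.15, with 25 of 34 positive.

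RA added to spleen DC cultures was then compared with no RA, sharing the Sp-DC arrays with the LP-DC comparison and the RA arrays with the preceding one. In Foxp3+ cells no gene of the set passed in either limma fit, against 0.101% of all genes unpaired and 1.03% paired, with 3 and 8 of 35 at an unadjusted p under 0.05 (4.82% and 12.3% of all genes). The differences were negative for 27 of 35 genes, with a median of -0.19, and 21 were lower with RA at both array numbers (28.2% of all genes). Without overlap of the 2 groups, 10 were lower and 2 higher (1451 and 1571 of all 11940 genes). The 5 most negative differences were those of Usp18, Tap1, Psmb9, Rtp4 (-0.64) and Zbp1. Psmb9, an immunoproteasome subunit, was at 9.98 and 10.52 with RA and at 10.89 and 11.02 without it, a difference of -0.71 ± 0.17 (SE, paired limma adjusted p = 0.0972). Its groups did not overlap. Tap1 was at 8.15 and 9.63 with RA and at 9.17 and 10.08 without it, a difference of -0.74 ± 0.19 (0.129), with overlap between the groups. Usp18 was at 6.19 and 6.29 with RA and at 6.96 and 7.89 without it, a difference of -1.19 ± 0.42 (0.267). Samhd1 differed by -0.59 ± 0.14 (0.0893) and Zbp1 by -0.62 ± 0.19 (0.210). Ifih1, Irf8 and Ifit2 had positive differences of 0.50, 0.41 and 0.38. Nlrc5, the transactivator of MHC class I genes and not among the 41, fell by 0.79 ± 0.15 (paired limma adjusted p = 0.0437).

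In Foxp3- cells RA had 1 array, numbered 2. No gene of the set passed in either limma fit (0.00838% of all genes called unpaired and 0.268% paired), and 0 unpaired and 1 paired reached an unadjusted p under 0.05 (2.49% and 6.11% of all genes). The direction of the set depended on the pairing: 22 of 35 differences were positive in the unpaired fit, with a median of 0.08, and 11 of 35 in the paired fit, with a median of -0.11.

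In memory cells RA went with higher levels of a group of these genes in the paired fit. Ifih1, Ifit2, Isg20, Xaf1 and Lgals3bp were higher with RA, 5 of 34 genes, and none was lower (5.15% of all genes called, 2.70% higher and 2.44% lower). In the unpaired limma fit 0 of 34 passed (0.0987% of all genes), with 3 at an unadjusted p under 0.05 (4.14% of all genes), and 15 when paired (15.7%). Of the 34 differences 25 were positive, with a median of 0.17, while the median of all genes was -0.00. Ifit3, among the 25, was tested only because of its level on arrays with RA.

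The sensor Ifih1 was at 7.58, 7.84 and 7.53 in Memory and at 9.18, 8.70 and 8.86 in Memory plus RA, in the order of the array numbers. Every array with RA was above every array without it. The difference was 1.26 ± 0.16 (SE, 2.39-fold, paired limma adjusted p = 0.00195, range over the alternatives 2e-06 to 0.0494), against an adjusted p of 0.126 in the unpaired fit. Among the effectors, Ifit2, an RNA-binding protein that restrains viral translation, was at 5.84, 6.31 and 7.86 without RA and at 7.12, 7.58 and 8.97 with it. The number 3 array without RA was above arrays 1 and 2 with RA, so the groups overlapped, but the differences within numbers were 1.28, 1.28 and 1.12. Their mean was 1.23 ± 0.13 (2.34-fold, paired limma adjusted p = 0.000591, range 1.26e-07 to 0.0180).

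Isg20, a 3′ to 5′ exonuclease that degrades RNA, was at 6.56, 6.47 and 6.13 without RA and at 7.40, 7.26 and 6.49 with it. Only the number 3 array with RA fell within the range of the arrays without it. Its difference was 0.67 ± 0.14 (paired limma adjusted p = 0.0289, range 0.0143 to 0.0798). Xaf1 was at 6.36, 6.35 and 5.12 without RA and at 6.76, 6.92 and 5.83 with it. These groups overlapped, and the difference was 0.56 ± 0.13 (paired limma adjusted p = 0.0416, range 0.0148 to 0.329), and it passed in 7 of 15 alternatives. A second, dimmer probe set of Xaf1 differed by -0.17. Lgals3bp, a secreted glycoprotein that binds galectin-3, was at 7.39, 7.0 and 6.59 without RA and at 8.0, 7.80 and 7.53 with it. The groups did not overlap, and the difference was 0.78 ± 0.13 (1.72-fold, paired limma adjusted p = 0.00824, range 0.000224 to 0.135).

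**Figure D4:**
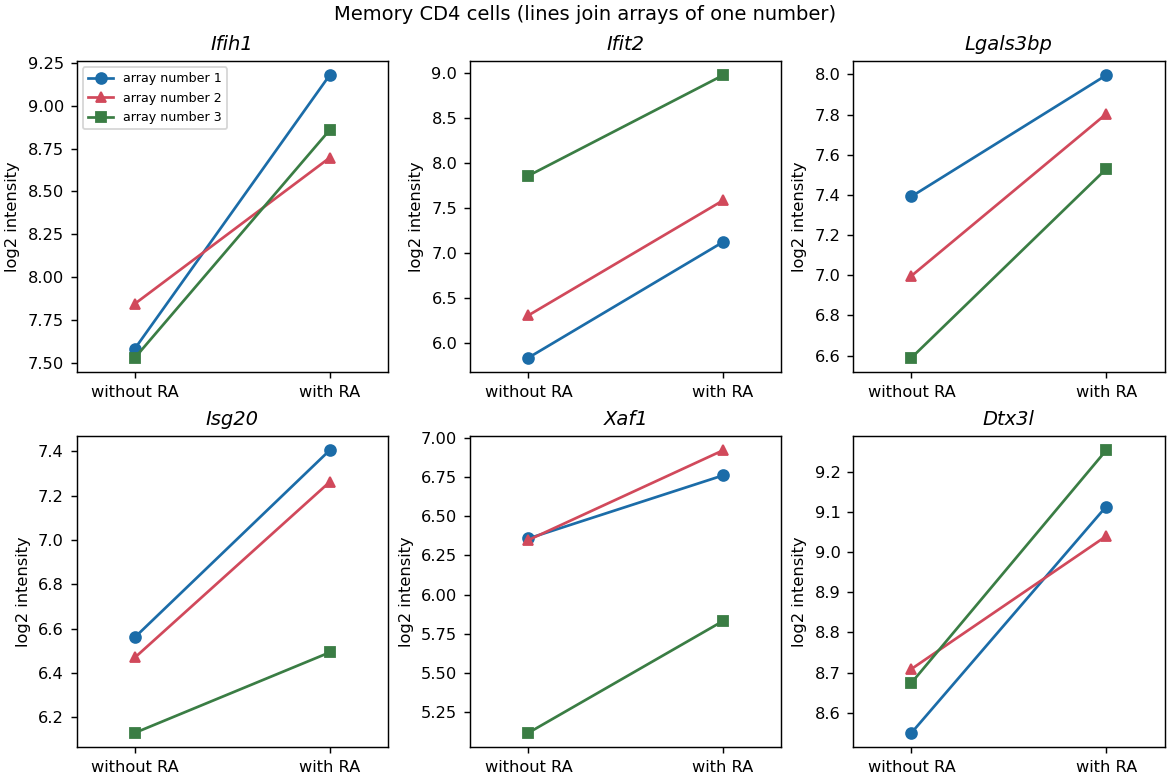
Log2 intensity (vertical axes) of Ifih1, Ifit2, Lgals3bp, Isg20, Xaf1 and Dtx3l on the 6 memory arrays, with a line joining the arrays of the same number without and with RA. All lines slope upward at all 3 numbers, Dtx3l included, which did not pass the test. Number 3 lies apart from numbers 1 and 2 in Ifit2, where it is higher, and in Xaf1 and Isg20, where it is lower.

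Other genes of the set moved with RA in each pair without passing. Dtx3l, a ubiquitin ligase that works with Parp9, was at 8.55, 8.71 and 8.67 without RA and at 9.11, 9.04 and 9.25 with it, a difference of 0.49 ± 0.13 (paired limma adjusted p = 0.0688). Its groups did not overlap. Zbp1 was at 6.02, 6.12 and 5.74 without RA and at 6.53, 6.22 and 6.28 with it, and Ifit3 at 5.65, 5.74 and 5.58 against 6.09, 6.18 and 5.81, again without overlap. Cmpk2 was at 6.82, 7.01 and 6.14 without RA and at 7.38, 7.26 and 6.32 with it, and Irf8 at 7.80, 8.30 and 10.07 against 8.21, 8.58 and 10.47. Both were higher with RA in each pair while the groups overlapped. Samhd1 was at 10.18, 10.22 and 11.26 without RA and at 10.03, 9.97 and 10.53 with it, lower in each pair. Ifit1 and Dhx58, which were not tested here, were at 5.42, 5.27 and 4.51 and at 5.79, 5.78 and 5.05 without RA, and at 5.60, 5.78 and 5.69 and at 5.78, 5.86 and 5.49 with it. In all, 6 of 34 genes had every array with RA above every array without it (4.19% of all genes) and 0 had the reverse (3.58%). Within numbers, 15 of 34 were higher with RA in all 3 pairs (18.8% of all genes) and 3 were lower (17.6%). Ifit3 is counted in the 6 and in the 15. It entered the memory tests only through arrays with RA, so the filter favoured its place in both counts. Of the genes with the largest LP-DC differences, Ifih1 also rose here and Rtp4 and Usp18 did not pass. Rtp4 was at 6.37, 6.64 and 6.27 without RA and at 6.33, 6.59 and 6.11 with it, and Usp18 was at 7.83, 7.05 and 6.51 against 7.26, 7.21 and 6.12, so it differed by -0.57, 0.16 and -0.39 within numbers. Psmb8, Psmb9, Oas3 and Adar had mean differences between -0.00 and 0.11.

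Both arrays numbered 3 stood apart from the mean of numbers 1 and 2. Without RA 5 of 34 genes were higher on number 3 by more than 1 (12.6% of all genes) and 3 were lower (5.09%). With RA these counts were 5 (14.9%) and 5 (5.34%). Irf8 had the largest excess, 2.02 without RA and 2.08 with it. Without both arrays numbered 3, Ifit2 at 1.28 (limma adjusted p = 0.0436 unpaired and 0.0155 paired) and Ifih1 at 1.22 (0.0356 and 0.0436) passed in either fit. Isg20 at 0.82 (0.0735 paired), Lgals3bp at 0.70 (0.128) and Xaf1 at 0.49 (0.322) then did not pass. The same count of 2 genes was left in the paired fit when only 1 of these arrays was left out.

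In memory cells 22 other interferon pathway genes were tested, a list that is separate from the 41 genes. With RA 2 rose and 1 fell in the paired limma fit (5.15% of all genes called, 2.70% higher and 2.44% lower). In the unpaired limma fit 0 passed (0.0987% of all genes). Ifng, the gene of interferon-gamma, was at 10.31, 9.25 and 8.92 without RA and at 8.60, 8.03 and 8.24 with it. It fell by 1.20 ± 0.18 (paired limma adjusted p = 0.0051), with no overlap of the groups. Ifngr1, a chain of its receptor, rose from a mean of 6.93 to 8.53, by 1.60 ± 0.24 (0.0049). It was at 6.70, 6.41 and 7.68 without RA and at 7.44, 8.20 and 9.93 with it. Ikbke, a kinase upstream of interferon induction, was at 6.8, 6.42 and 7.58 without RA and at 7.87, 7.53 and 7.96 with it, and rose by 0.85 ± 0.17 (0.0183). Ifngr1 and Ikbke overlapped between the groups because of the number 3 arrays without RA. Without both arrays numbered 3, Ifng at -1.46 (paired limma adjusted p = 0.0152) and Ikbke at 1.09 (0.0268) passed and Ifngr1 at 1.27 (0.0689) did not. Ifnb1, which encodes interferon-beta, lay between 5.33 and 6.35 on the 17 arrays, near the array median.

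The RA differences of the 2 experiments are set side by side, since they share no array. Of the 33 genes tested in both, 24 were above 0 in memory cells and 7 in Foxp3+ cells, and 17 were above 0 in memory cells and below 0 in Foxp3+ cells. In 6 genes, namely Zbp1, Irf1, Ifit3, Cmpk2, Dtx3l and Tap1, all 3 memory pairs were higher and both Foxp3+ pairs were lower with RA, against 4.16% of the 11537 genes tested in both experiments. The reverse held for 0 of the 33, against 3.08%. Ifit3, among the 6, entered the memory tests only through arrays with RA. The difference between the 2 effects was negative for 33 of 36 genes, with a median of -0.34 against 0.01 for all genes. In the paired limma fit Dtx3l passed and was the only one of 36 to do so (1.48% of all genes), and in the unpaired fit 0 passed (0.0712% of all genes), with 1 of 36 at an unadjusted p under 0.05 (2.80%) and 10 paired (12.2%). Dtx3l was at 10.30 and 10.43 in Foxp3+ cells with RA and at 10.84 and 10.85 without it, a difference of -0.47. It was at 10.78 and 10.78 in LP-DC Foxp3+ cells, and in Foxp3- cells at 10.75 and 10.59 with LP-DC, 10.83 and 10.44 with Sp-DC and 10.37 with RA. Set against the 0.49 in memory cells, the effects differed by -0.96 ± 0.19 (adjusted p = 0.0233, range 0.0182 to 0.149), and this passed in 11 of 19 alternatives. Its other probe set gave -0.41 and 0.25. The paired fit called 0 genes of the set without either Sp-DC Foxp3+ array, the RA Foxp3+ array numbered 1 or any memory array numbered 1 or 3, and 2 without the RA Foxp3+ array numbered 2. Zbp1 at -1.01, Tap1 at -0.96 and Psmb9 at -0.82 did not pass (paired limma adjusted p = 0.0713, 0.0749 and 0.0849). The experiments also differ in the cells, the culture partners (DCs or naive T cells), the stimulus, the culture time and the stated IL-2 and TGF-beta doses. These cannot be told apart from one another.

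**Figure D5:**
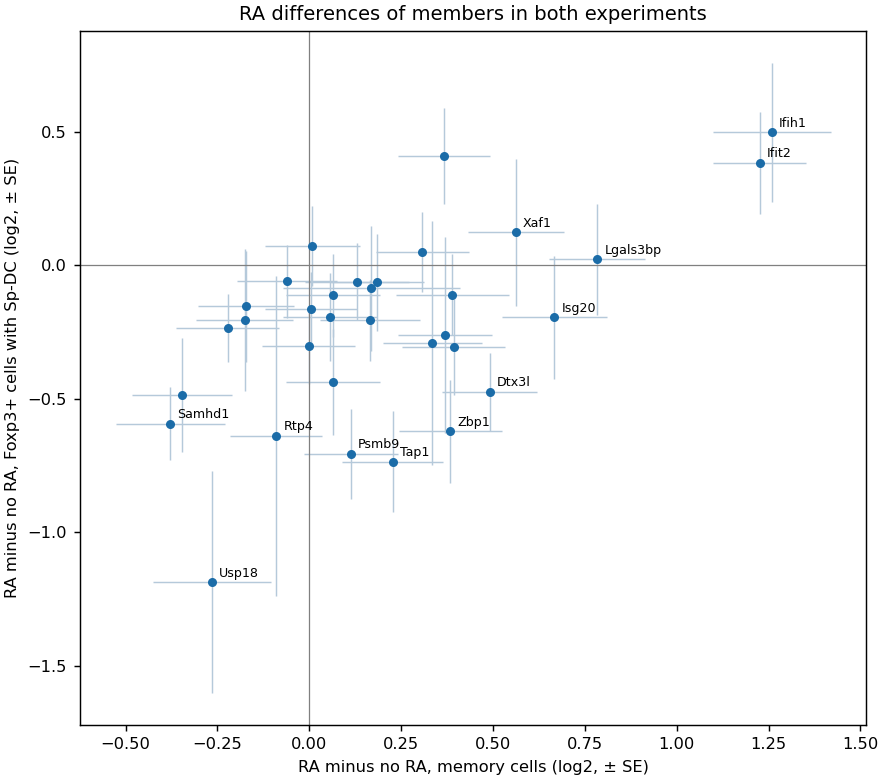
RA differences (log2) of the 33 genes tested in both experiments, in Foxp3+ cells of Sp-DC cultures (vertical axis) against memory cells (horizontal axis), with bars of 1 SE from the paired fit. More points lie right of 0 (24) than above 0 (7). Ifih1 and Ifit2 lie above 0 on both axes, and Dtx3l is at 0.49 in memory cells and -0.47 in Foxp3+ cells.

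The Foxp3 sort divided 1 gene of the set. Isg20 was at 8.86 and 9.69 with LP-DC, 9.33 and 9.38 with Sp-DC and 8.94 and 9.38 with RA in Foxp3+ cells. In Foxp3- cells it was at 7.88 and 8.61 with LP-DC, 8.68 and 8.50 with Sp-DC and 8.81 on the RA array. All 6 Foxp3+ arrays were above all 5 Foxp3- arrays, as for 0.595% of all genes. The mean difference of the 3 cultures was 0.78 ± 0.15 in the paired limma fit (1.72-fold, adjusted p = 0.0142, range 0.00322 to 0.0656) and 0.72 in the unpaired fit (adjusted p = 0.234). It was 1.03 ± 0.23 with LP-DC (2.05-fold, paired limma adjusted p = 0.0424, range 0.0201 to 0.338) and 0.77 ± 0.23 with Sp-DC (0.237). Isg20 was the only one of 35 genes to pass for the mean (paired 4.75% of all genes called, unpaired 0 of 35 against 0.896%), with 3 unpaired and 6 paired at an unadjusted p under 0.05 (7.92% and 14.8% of all genes). The same was true with LP-DC (paired 3.49% of all genes, unpaired 0 of 35 against 0.159%, with 2 and 5 at an unadjusted p under 0.05, against 5.90% unpaired and 12.5% paired). With Sp-DC 0 of 35 passed in either limma fit (0.586% of all genes paired and 0 unpaired), with 1 and 2 at an unadjusted p under 0.05 (3.50% unpaired and 9.56% paired).

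Lgals3bp and Ifit2 were lower in Foxp3+ cells, by -0.46 and -0.42 on average, and did not pass (paired limma adjusted p = 0.0923 and 0.102). Lgals3bp was at 6.18 and 6.84 with LP-DC, 6.29 and 6.31 with Sp-DC and 6.16 and 6.48 with RA in Foxp3+ cells, and at 6.83 and 7.32, 6.86 and 6.58, and 6.85 in Foxp3- cells. The sorted cells overlapped by little, with the LP-DC Foxp3+ array numbered 2 above 2 of the Foxp3- arrays. Without both LP-DC arrays numbered 2 they passed at -0.53 (0.0237) and -0.45 (0.0363), beside Isg20 at 0.72 (0.00322). The Isg20 difference with LP-DC was then 0.98 (0.0561). Leaving out the RA Foxp3+ array numbered 2 gave 0 genes for the mean, and leaving out the Sp-DC Foxp3- array numbered 2 gave 2. With LP-DC, leaving out any of the 4 arrays gave 0. The median of the 35 differences was -0.05 unpaired and -0.01 paired. For the sort with LP-DC, 1 of 23 pathway genes passed in the paired limma fit (3.49% of all genes called). This was Ifng, which fell in Foxp3+ cells by 2.03 ± 0.39 (paired limma adjusted p = 0.0226), from 6.63 and 8.08 to 5.15 and 5.52. It was -1.48 without both LP-DC arrays numbered 2, and then did not pass (paired limma adjusted p = 0.146). The levels of Klrd1 and Gzma, which differed with the sort, and of Cd8a, Cd8b1 and Ncr1, which overlapped between the sorts, are given above. The part of such cells in the Isg20 and Ifng differences was not tested.

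Of 23 pathway genes tested in the co-cultures, 3 rose with LP-DC against Sp-DC in Foxp3+ cells (paired limma fit, 1.44% of all genes called). These were Jak2, a kinase of the interferon-gamma receptor, by 0.85 (adjusted p = 0.0441), Tmem173, the adaptor STING of cytosolic DNA sensing, by 1.09 (0.0481), and Ikbke by 0.99 (0.0424). In Foxp3+ cells Jak2 was at 10.53 and 11.63 with LP-DC and at 9.94 and 10.52 with Sp-DC, Tmem173 at 10.79 and 11.09 against 10.09 and 9.61, and Ikbke at 9.29 and 10.27 against 8.60 and 8.99. The groups did not overlap in any of these, as for 2407 of all 11940 genes in that direction. When both LP-DC arrays numbered 2 were left out they differed by 0.59, 0.88 and 0.74 and did not pass (paired limma adjusted p = 0.380, 0.183 and 0.280). Against the RA cultures Nlrc5 rose by 1.01 ± 0.15 (0.0107), from 8.66 and 8.91 with RA to 9.64 and 9.96 with LP-DC, and without both LP-DC arrays numbered 2 it differed by 0.88 (0.0870). The RA effect on Ifngr1 in Foxp3+ cells minus that in memory cells was -1.75 ± 0.35 (0.0272), and without both memory arrays numbered 3 it was -1.42 (0.0742). None of the 23 passed in the unpaired limma fit.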

How the data were processed

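Per the series' design text, the authors ran RMA in GenePattern on the arrays. Neither its version nor whether all arrays were normalised as 1 set is stated in the labels. The deposited values are linear intensities for 45101 probe sets (34958 with 1 gene symbol, 932 with several, 9211 with none) and range from 4.06 to 27165. Computed here: the deposited intensity was put on a log2 scale with no pseudocount. Each gene was represented by the probe set with the highest mean over the 17 arrays, and tested where 2 or more arrays of the fit had it above their median: 11940 genes in the co-culture experiment, 12163 in the memory experiment and 12642 over all arrays. Tests were limma 3.58.1 in R 4.3.3, fitted per experiment (RA interaction: all arrays) and tested on simulated data.

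The array number pairs the arrays: deviations of same-numbered arrays correlated at 0.451 to 0.756 over 20 pairs in the co-cultures and at 0.656 to 0.940 over 3 pairs in the memory cells, and so the paired values are given beside the unpaired ones. With 2 arrays per group the deviations at numbers 1 and 2 mirror each other. Each co-culture correlation is thus the same at both numbers, and the 20 pairs are not independent. Values on every array are given for genes that passed in either fit and for the 8 genes with the widest range of group means, with others by their largest differences. The genes, the pathway list and the marker lists were chosen with earlier results of these data known. The motif search used RefSeq promoter windows. Alternatives were quantile normalisation, other filters, an offset of 32, other probe set choices, 1 fit over all arrays, a variance trend and leaving out arrays. The RA Foxp3- array is numbered 2, and one numbered 1 is not analysed here.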

Additional observations from a re-analysis of the deposited data

Results flagged for a closer look

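The RA effect on Dtx3l differed between Foxp3+ cells of spleen DC cultures and memory cells by -0.96 in a test of the difference itself (limma with the array number as a block, adjusted p = 0.0233, range over the alternatives 0.0182 to 0.149). The gene was lower with RA on both pairs of Foxp3+ arrays and higher on all 3 pairs of memory arrays. Without the block the adjusted p was 0.339. The cause was not tested.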

How the results depend on the processing

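Without the array number as a block, 0 genes of the set passed in any comparison, also when each array was left out in turn. The exception was RA in memory cells without both arrays numbered 3, with 2 genes (2 with the block, down from 5). With the replicate block the counts were 5 for RA in memory cells, 1 for the mean Foxp3 difference, 1 for the Foxp3 difference with LP-DC, 3 for LP-DC against Sp-DC plus RA, 1 for the RA interaction and 0 for the others. None of the 11 single-gene differences that passed with the block changed sign under the alternatives that gave a value. The mean of all probe sets gave none for Xaf1 in memory cells, where its other probe set differed by -0.17. The settings added after seeing the data changed the blocked counts as follows. Without both LP-DC arrays numbered 2 the counts were 3 for the mean Foxp3 difference, 0 for the Foxp3 difference with LP-DC and 0 for LP-DC against Sp-DC plus RA. Without both memory arrays numbered 3 the RA interaction had 0. One fit over all 17 arrays gave 2 and 3 for LP-DC against Sp-DC in Foxp3+ and Foxp3- cells and 6 for LP-DC against Sp-DC plus RA. Quantile normalisation gave 2 for LP-DC against Sp-DC in Foxp3- cells and 2 for the RA interaction. A variance trend gave 1 for RA in Foxp3+ cells and 1 for LP-DC against Sp-DC in Foxp3- cells. The mean of all probe sets gave 1 for RA in Foxp3+ cells, and an offset of 32 gave 0 for the Foxp3 difference with LP-DC. Shares of all genes called are not given for these settings, so the counts do not show whether the set moved more than all genes. The causes were not tested.

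Leaving out 1 array at a time, with the block, gave 2 to 6 genes for RA in memory cells, 0 to 2 for the mean Foxp3 difference, 0 to 0 for the Foxp3 difference with LP-DC, 0 to 2 for LP-DC against Sp-DC in Foxp3+ cells, 0 to 6 for LP-DC against Sp-DC plus RA and 0 to 2 for the RA interaction. It gave 0 in the other comparisons. Shares of all genes are not given for these counts, here or in the paragraphs above. Leaving out the single RA Foxp3- array gives no value for RA in Foxp3- cells. With 1 to 3 arrays per group, the number of arrays limits the precision. Ifit1 and Ifit3 lay near or below the array median outside the LP-DC arrays.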
